A study of Mus musculus with 2 samples.

Results

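The 10 genes described here encode integrin chains. 5 are alpha chains (Itgax, Itgam, Itgal, Itga4 and Itgav) and 5 are beta chains (Itgb1, Itgb2, Itgb5, Itgb7 and Itgb8). They were listed by symbol, without use of their measured values, and make up 10 of the 31053 genes in the deposited matrices and 10 of the 26 integrin chain genes looked up there. Both libraries held immune cells from mouse pancreatic islets, the hormone-secreting cell clusters of the pancreas, in a series on islet macrophages and oxidant defence. For each library, islets of 6 to 8 C57BL/6J males fed chow were pooled, and the labels name no other allele or agent. Sorted cells excluded the dead-cell dye DAPI, lacked Epcam, which marks epithelium, and carried CD45, which marks leukocytes. One pool carries the time label 1 week and the other 12 weeks. The labels state neither what the weeks count nor the age of the mice, and the titles give the libraries replicate numbers 1 and 2. With 1 library per label, time, pool and library cannot be told apart.

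The matrices held 1551 barcodes and 12858754 unique molecular identifiers (UMIs, tags that count each captured transcript once) at 1 week, and 1867 barcodes and 12448628 UMIs at 12 weeks. Filters and doublet calls left 1338 and 1744 cells, with median depths of 7392 and 6828.5 UMIs. Only 2 barcode sequences occurred among the kept cells of both libraries. Macrophages were cells with at least 5 UMIs of the complement transcripts C1qa, C1qb and C1qc together, outside clusters named for another class, and numbered 1202 and 1581. B-like, T-like and dendritic-like cells came from clusters named by their markers and had to hold fewer than 5 C1q UMIs. They were few, with 26 and 28 B-like, 10 and 40 T-like, and 19 and 33 dendritic-like cells at 1 and 12 weeks. The macrophage markers include the C1q transcripts that set the classes, and the other clusters were named by their markers. Marker levels therefore describe the classes and are not an independent check of them. The 10 macrophage markers summed to 13432 and 11858 in macrophages at 1 and 12 weeks, in counts-per-million units of all UMIs (CPM), and to between 33.0 and 571 CPM in the other profiles. In the 1-week T-like profile, 9 of these 10 markers were at 0. None of the 14 B markers was at 0 in B-like cells and none of the 12 T markers in T-like cells, while the dendritic marker Cacnb3 was at 0 in dendritic-like cells of both libraries and Fscn1 in those of the 12-week library. Among macrophages, 86 at 1 week and 38 at 12 weeks carried 3 or more UMIs of B or of T markers, and such cells held 11.2% to 16.0% of each integrin gene's UMIs at 1 week and 1.62% to 6.76% at 12 weeks.

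Integrins are cell surface receptors built from 1 alpha and 1 beta chain, which together bind matrix proteins, complement fragments or counter-receptors on other cells. Itgb2 pairs with Itgal, Itgam and Itgax to form the leukocyte integrins LFA-1, Mac-1 and CD11c/CD18. Itgb1 and Itgb7 both pair with Itga4 in receptors for Vcam1, and Itgb7 with Itga4 also binds the gut vessel protein Madcam1. Itgav pairs with Itgb1, Itgb5 or Itgb8, and the Itgav-Itgb8 receptor is known for releasing active TGF-beta from its latent complex. Transcript counts do not show which chains pair at the surface. The libraries count 3' ends, so levels in CPM count molecules and were not divided by transcript length. Log2 differences also use scaling factors between profiles (TMM), so their size or sign can differ from that of the CPM levels. Intervals given for single levels, ratios and shares are exact 95% intervals and cover counting error only.

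Itgax, the alpha chain of CD11c/CD18 (ENSMUSG00000030789, GRCm38 chromosome 7, 128129547 to 128150657, plus strand), was among the abundant alpha chains in macrophages, at 142 CPM at 1 week and 126 CPM at 12 weeks. Dendritic-like cells had 95.1 and 151 CPM, T-like cells 66.1 and 16.9 CPM, and B-like cells 10.3 CPM and none. The macrophage values lay inside the range of the dendritic-like values and above all 4 lymphocyte values. The T-like and B-like levels rest on 0 to 3 UMIs per profile. In the edgeR quasi-likelihood test over summed profiles, with the library as a block, Itgax was higher in macrophages than in B-like cells by 4.43 on the log2 scale (SE 0.68, Benjamini-Hochberg adjusted p = 3.81e-05). In the 12-week library alone, where B-like cells had none, it was 7.53 (single-library differences use a prior count of 2 and have no test). Its difference from dendritic-like cells was 0.21 (SE 0.32, edgeR adjusted p = 0.714).

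Itgav, the alpha chain shared by receptors for RGD-bearing matrix proteins (ENSMUSG00000027087, chromosome 2, 83724397 to 83806916, plus strand), stood at 108 CPM in 1-week and 85.1 CPM in 12-week macrophages. The other 6 profiles ranged from 0 in 1-week T-like cells to 59.5 CPM in 12-week dendritic-like cells, so the macrophage values did not overlap them. Itgav was higher in macrophages than the mean of the other classes by 1.64 (SE 0.34, edgeR adjusted p = 0.000603). This size depends on the library: it was 1.35 in the 12-week and 4.05 in the 1-week library alone, where T-like cells had none. Against dendritic-like cells its difference was 1.18 (SE 0.42, edgeR adjusted p = 0.0550). Against T-like cells it was 1.59 (edgeR adjusted p = 0.0313), with 1.31 in the 12-week and 7.22 in the 1-week library alone. Without the 1-week T-like profile of 10 cells it was 1.34 (edgeR adjusted p = 0.0820). Itgav reached the level asked by the filter on low counts in both macrophage profiles and 1 other. Its direction was therefore bound up with passing.

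Itga4, the alpha chain of the Vcam1 receptors (ENSMUSG00000027009, chromosome 2, 79255426 to 79333123, plus strand), showed the opposite order. Macrophages had 23.9 and 21.2 CPM, B-like cells 87.9 and 154 CPM, T-like cells 66.1 and 73.3 CPM, and dendritic-like cells 89.2 and 155 CPM at 1 and 12 weeks. Every other profile was above both macrophage profiles. Itga4 was lower in macrophages than the mean of the other classes by a log2 difference of -1.92 (SE 0.30, edgeR adjusted p = 3.34e-05), and by -1.23 in the 1-week library alone. Only other classes carried it past the filter on low counts, so this direction was bound up with passing.

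Itgal, the alpha chain of LFA-1 (ENSMUSG00000030830, chromosome 7, 127296260 to 127335138, plus strand), had its highest levels in T-like cells, at 165 and 84.6 CPM, against 37.7 and 26.8 CPM in macrophages. B-like cells had 36.2 and 9.07 CPM and dendritic-like cells 77.3 and 47.6 CPM. Macrophages were lower than T-like cells by -1.40 on the log2 scale (SE 0.45, edgeR adjusted p = 0.0195), a call that was lost without the 1-week T-like profile (-1.28, edgeR adjusted p = 0.0890) and without the library block (-1.25, edgeR adjusted p = 0.0611). Against the mean of the other classes the difference was -0.58 (edgeR adjusted p = 0.157). Only other classes carried Itgal past the filter on low counts, so its direction was bound up with passing.

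Itgam, the alpha chain of Mac-1 and the CD11b antigen (ENSMUSG00000030786, chromosome 7, 128062640 to 128118491, plus strand), lies upstream of Itgax in the same orientation. It was low in macrophages, at 20.2 and 16.9 CPM, and at 29.7 and 67.4 CPM in dendritic-like cells. B-like cells had 0 and 9.07 CPM and T-like cells 0 and 22.6 CPM, from 0 to 4 UMIs per profile. Pooled over both libraries, the macrophage level was 0.353 times that of dendritic-like cells (interval 0.230 to 0.570). Itgam did not pass the filter on low counts. Tested without that filter, it differed from dendritic-like cells by -1.13 (SE 0.48, edgeR adjusted p = 0.233).

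**Figure D1:**
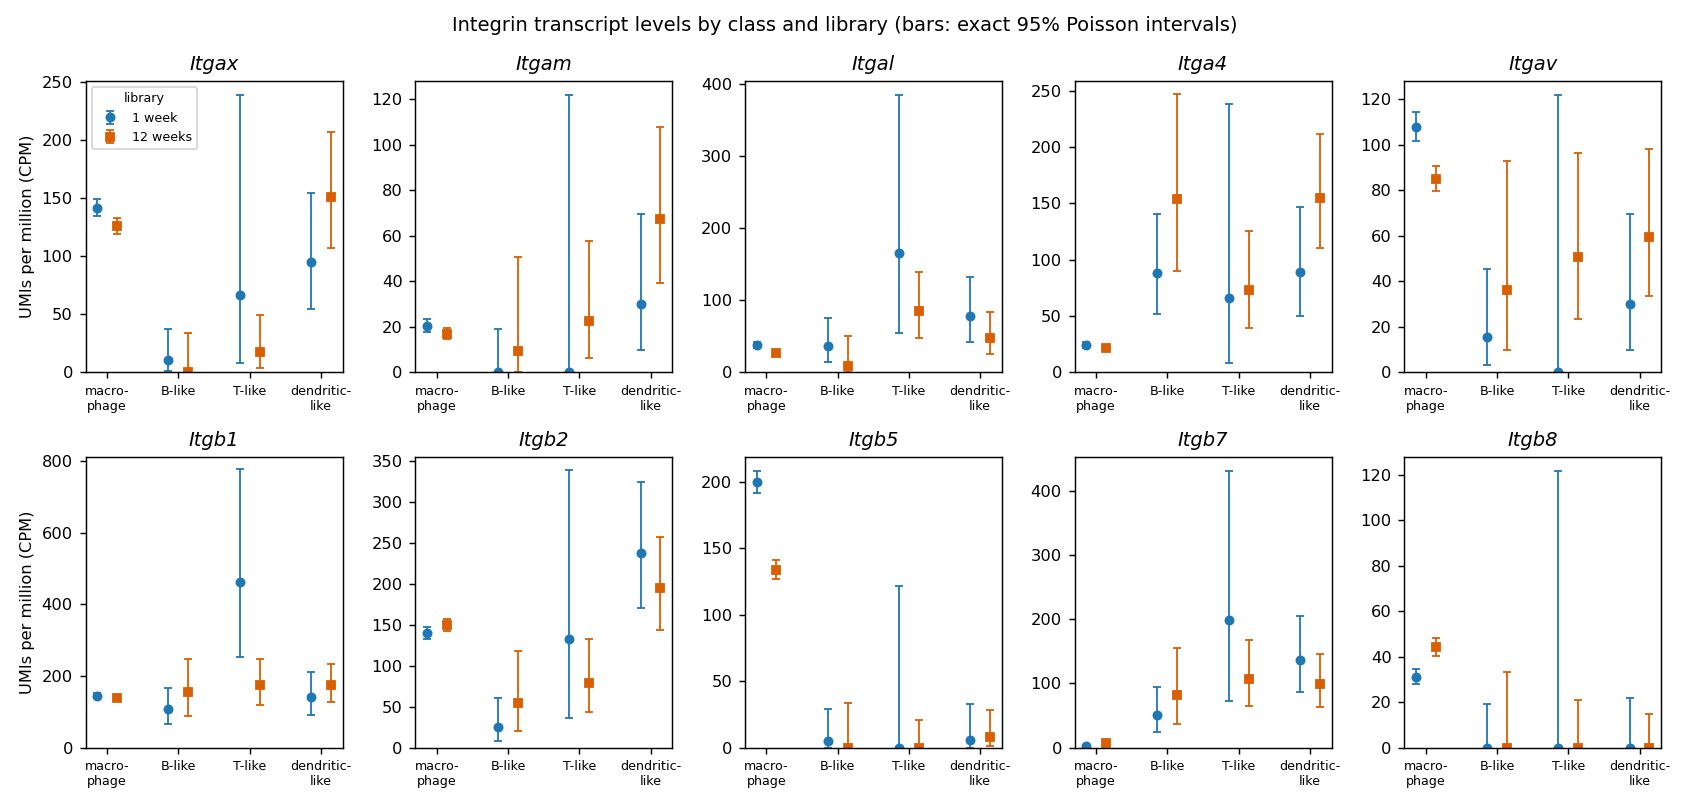
Level of each integrin gene (vertical axis, CPM) in macrophages and in B-like, T-like and dendritic-like cells. Circles stand for the 1-week and squares for the 12-week library, and bars are exact 95% Poisson intervals of the summed counts. Itgb5 and Itgb8 are near or at 0 outside macrophages, Itga4 and Itgb7 are lower in macrophages than in every other profile, and intervals are widest for the 1-week T-like profile of 10 cells.

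Itgb5, a partner of Itgav in a vitronectin receptor (ENSMUSG00000022817, chromosome 16, 33829665 to 33949338, plus strand), had 200 CPM in 1-week and 134 CPM in 12-week macrophages. It had 5.17 CPM and none in B-like cells, none in either T-like profile, and 5.94 and 7.93 CPM in dendritic-like cells, from 4 UMIs in all. The pooled macrophage level was 23.3 times that of dendritic-like cells (interval 7.96 to 113) and 50.5 times that of B-like cells (interval 9.05 to 1994). It was at least 11.5-fold higher than in T-like cells, taking 3 UMIs over both T-like profiles as the floor. In the edgeR test Itgb5 was higher than in dendritic-like cells by 4.61 (SE 0.54, adjusted p = 4.98e-06). It passed the filter on low counts through macrophages alone, so this direction was bound up with passing.

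Itgb8, the beta chain of the TGF-beta releasing receptor (ENSMUSG00000025321, chromosome 12, 119158022 to 119238802, minus strand), had 31.3 CPM in 1-week and 44.1 CPM in 12-week macrophages, from 328 and 484 UMIs. No UMI of Itgb8 was counted among the 931336 UMIs of B-like, T-like and dendritic-like cells. With 3 UMIs as the floor over each group, macrophages were at least 11.7-fold higher than all these cells together. By class the limits were at least 3.83-fold for B-like, 2.62-fold for T-like and 5.30-fold for dendritic-like cells. Itgb8 did not pass the filter on low counts, and these limits are its comparison. Outside the 4 classes, a cluster of 39 endocrine-like cells held 15 Itgb8 UMIs, or 12.2 CPM.

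The limit of 5 C1q UMIs leaves C1q-rich cells out of the other classes, so Itgb5 and Itgb8 were also compared without it. Whether those cells carry macrophage RNA was not tested. When all 41 and 30 B-clustered, 20 and 56 T-clustered, and 24 and 40 dendritic-clustered cells entered whatever their C1q, the differences from the mean of the other classes were 2.10 for Itgb8 (edgeR adjusted p = 0.0490) and 2.19 for Itgb5 (edgeR adjusted p = 0.0158). There Itgb8 reached the level the filter asks for in both macrophage profiles and in 1 of the others. Its direction was thus bound up with passing, and the p-value does not support it.

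Itgb7, the beta chain of the gut-homing receptor (ENSMUSG00000001281, chromosome 15, 102215995 to 102231944, minus strand), was nearly the reverse. Macrophages had 2.38 and 6.75 CPM, against 51.7 and 81.7 CPM in B-like, 198 and 107 CPM in T-like, and 137 and 99.2 CPM in dendritic-like cells. The profiles did not overlap. Macrophages were lower than the mean of the other classes by -4.20 on the log2 scale (SE 0.40, edgeR adjusted p = 9.41e-08). Itgb7 kept this call in cells of any C1q, at -3.75 (edgeR adjusted p = 0.00261). In both settings only other classes carried it past the filter on low counts, so its direction was bound up with passing.

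Itgb2, the common beta chain of the leukocyte integrins (ENSMUSG00000000290, chromosome 10, 77530252 to 77565708, plus strand), had 140 and 150 CPM in macrophages and 238 and 194 CPM in dendritic-like cells. T-like cells had 132 and 79.0 CPM and B-like cells 25.9 and 54.4 CPM. Macrophages lay between dendritic-like cells above and lymphocytes below. Itgb2 was higher in macrophages than in B-like cells by 2.08 (SE 0.42, edgeR adjusted p = 0.000525) and than in T-like cells by 1.10 (SE 0.39, edgeR adjusted p = 0.0331). Its difference from dendritic-like cells was -0.43 (SE 0.27, edgeR adjusted p = 0.281).

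Itgb1, the beta chain with the widest choice of partners (ENSMUSG00000025809, chromosome 8, 128685654 to 128733200, plus strand), had 145 and 140 CPM in macrophages, 109 and 154 CPM in B-like, 463 and 175 CPM in T-like, and 143 and 175 CPM in dendritic-like cells. Apart from the 1-week T-like value, which rests on 10 cells, these levels overlapped. The difference from the mean of the other classes was -0.04 (SE 0.23, edgeR adjusted p = 0.923), and its sign changed under 7 of the alternative settings.

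Of the 10 genes, 8 passed the filter, which asks for 54.0 CPM in 2 profiles. Itgb5 reached that level in macrophages alone and Itgav in both macrophage profiles and 1 other, while Itga4, Itgal and Itgb7 reached it only in other classes. The direction of these 5 was bound up with passing, so the counts that follow describe the 8 genes and support nothing. In the contrast of macrophages with the mean of the other classes, 4 were higher (Itgax, Itgav, Itgb2 and Itgb5), against 26.9% of all 3158 genes tested, and 2 were lower (Itga4 and Itgb7), against 13.9%. Against B-like cells 4 were higher and 2 lower, beside 24.1% and 14.9% of all genes. Against T-like cells 4 were higher and 2 lower, beside 22.3% and 13.5%, with Itgal in the place of Itga4. Against dendritic-like cells only Itgb5 was higher and Itga4 and Itgb7 were lower, beside 12.6% and 8.77%. The median difference of the 8 genes from the mean of the other classes was 0.44, and that of all genes was -0.00361. With other classes of any C1q, Itgax (0.85, edgeR adjusted p = 0.201) and Itgb2 (0.51, edgeR adjusted p = 0.161) lost their calls against the mean, and no member was called higher than in T-like cells. These profiles come from 2 libraries with different time labels. With the library as a block, p-values measure the spread left after the difference between the libraries is removed. They do not measure the spread between pools or mice.

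Promoter sequence is shown for Itgb5 and Itgb8, the chains nearly or wholly absent from the 3 other classes, and for Itgax and Itgb7, an alpha chain and a beta chain of opposite order. The sequences run from 250 bases before to 50 after each start in RefSeq, 5' to 3' on the gene's strand, and come from RefSeq on GRCm38.p6, where 8 of the 10 genes had an entry. Itgal and Itgb2 are the others. Gene positions given above are those of GENCODE, and for Itgb8 the RefSeq start lies 526 bases downstream of the GENCODE start, so its window lies within the gene as printed above. For Itgax and Itgb7 the starts differ by 3 and 9 bases, and for Itgb5 they are the same. Capitals mark GAGGAA, a core bound by PU.1, the lineage factor of myeloid cells, or its reverse complement TTCCTC, and TGANTCA, a core bound by AP-1 factors, which reads as the same motif on both strands.
Itgb5, chr16:33829415-33829714, plus strand: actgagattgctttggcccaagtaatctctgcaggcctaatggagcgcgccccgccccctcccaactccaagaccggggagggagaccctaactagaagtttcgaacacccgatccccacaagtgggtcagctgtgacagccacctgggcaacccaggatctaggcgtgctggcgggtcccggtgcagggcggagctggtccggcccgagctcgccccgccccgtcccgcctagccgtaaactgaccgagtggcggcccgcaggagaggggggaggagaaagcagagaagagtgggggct
Itgb8, chr12:119238227-119238526, minus strand: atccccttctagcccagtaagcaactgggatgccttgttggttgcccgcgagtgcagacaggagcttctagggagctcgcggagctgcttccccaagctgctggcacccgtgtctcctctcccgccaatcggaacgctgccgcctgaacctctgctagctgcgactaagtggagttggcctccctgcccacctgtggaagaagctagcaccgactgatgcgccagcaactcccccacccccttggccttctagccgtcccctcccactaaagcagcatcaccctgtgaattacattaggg
Itgax, chr7:128129300-128129599, plus strand: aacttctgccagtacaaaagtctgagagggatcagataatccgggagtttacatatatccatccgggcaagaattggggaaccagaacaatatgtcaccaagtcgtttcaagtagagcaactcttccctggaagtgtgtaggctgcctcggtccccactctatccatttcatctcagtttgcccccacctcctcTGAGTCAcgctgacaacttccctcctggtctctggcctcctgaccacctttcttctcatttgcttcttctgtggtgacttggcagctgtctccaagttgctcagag
Itgb7, chr15:102231886-102232185, minus strand: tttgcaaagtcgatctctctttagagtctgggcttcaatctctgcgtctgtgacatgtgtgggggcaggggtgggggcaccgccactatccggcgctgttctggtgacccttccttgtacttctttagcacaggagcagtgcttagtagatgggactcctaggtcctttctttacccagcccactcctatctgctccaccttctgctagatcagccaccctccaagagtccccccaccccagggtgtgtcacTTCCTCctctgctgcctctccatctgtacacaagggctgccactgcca
The Itgb5 and Itgb8 windows held neither motif, the Itgax window held 1 TGANTCA match, and the Itgb7 window held 1 TTCCTC match. Over the 8 members with an entry, 4 held GAGGAA on either strand and 1 held TGANTCA. Of 32851 promoters of the same length, 28.3% held GAGGAA and 7.81% held TGANTCA. No printed window held both motifs. The matches describe letters in these windows only.

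Detection per cell was compared after each cell was thinned to 3000 UMIs, which kept 1049 of the 1-week and 1492 of the 12-week macrophages and left out 153 and 89 shallower ones. At this depth Itgb5 was detected in 39.6% of 1-week macrophages (interval 36.6% to 42.6%) and 31.2% of 12-week macrophages (28.8% to 33.6%). Itgb1 was detected in 33.5% and 31.6%, Itgb2 in 32.2% and 34.3%, and Itgax in 31.6% and 28.8%. Itgav followed at 24.7% (22.1% to 27.4%) and 19.5% (17.5% to 21.6%). These 5 chains were the common ones in both libraries.

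The remaining chains were each found in a minority of macrophages. Itgal was detected in 10.6% and 7.31%, Itga4 in 8.87% and 5.36%, Itgb8 in 8.20% and 9.18%, and Itgam in 5.62% and 4.56%. Itgb7 was detected in 0.667% (0.269% to 1.37%) at 1 week and 2.41% (1.70% to 3.32%) at 12 weeks. Without thinning the shares ran from 1.5% for Itgb7 to 68.1% for Itgb5 at 1 week and from 4.17% for Itgb7 to 59.0% for Itgb2 at 12 weeks.

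Itgb8 was found in 0 of the 24 and 17 B-like, 4 and 20 T-like, and 19 and 31 dendritic-like cells deep enough. In a single profile this allows a share at the macrophage level. For the 31 cells the limit was 9.68% with 3 cells as the floor, and 11.2% as an exact interval. Over both libraries and with that floor, 0 of 50 dendritic-like cells allows up to 6%, below both macrophage shares. For 0 of 41 B-like cells the limit was 7.32%, inside the 1-week macrophage interval (6.61% to 10.0%). For 0 of 24 T-like cells it was 12.5%. A share at the macrophage level is thus not excluded for B-like or T-like cells. For dendritic-like cells the limit of 6% depends on the chosen floor and on pooling the cells of 2 libraries, so it excludes nothing either. Over all 115 cells the limit was 2.61%. Itga4 was detected in 37.5% and 41.2% of B-like cells (intervals 18.8% to 59.4% and 18.4% to 67.1%), above the macrophage intervals in both libraries. Itgb7 was detected in 26.3% and 25.8% of dendritic-like cells (9.15% to 51.2% and 11.9% to 44.6%), also above the macrophage intervals. In other cases the intervals overlapped those of macrophages. For Itga4 these were T-like cells (25% of 4 and 10% of 20) and 1-week dendritic-like cells (21.1%, 6.05% to 45.6%). For Itgb7 they were 1-week B-like cells (8.33%, 1.03% to 27.0%) and 12-week T-like cells (10%, 1.23% to 31.7%). Intervals lay above those of macrophages for Itga4 in 12-week dendritic-like cells and for Itgb7 in 12-week B-like and 1-week T-like cells. For Itgax the dendritic-like shares were 10.5% and 19.4% (1.30% to 33.1% and 7.45% to 37.5%). They were lower than the macrophage shares, with overlapping intervals.

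**Figure D2:**
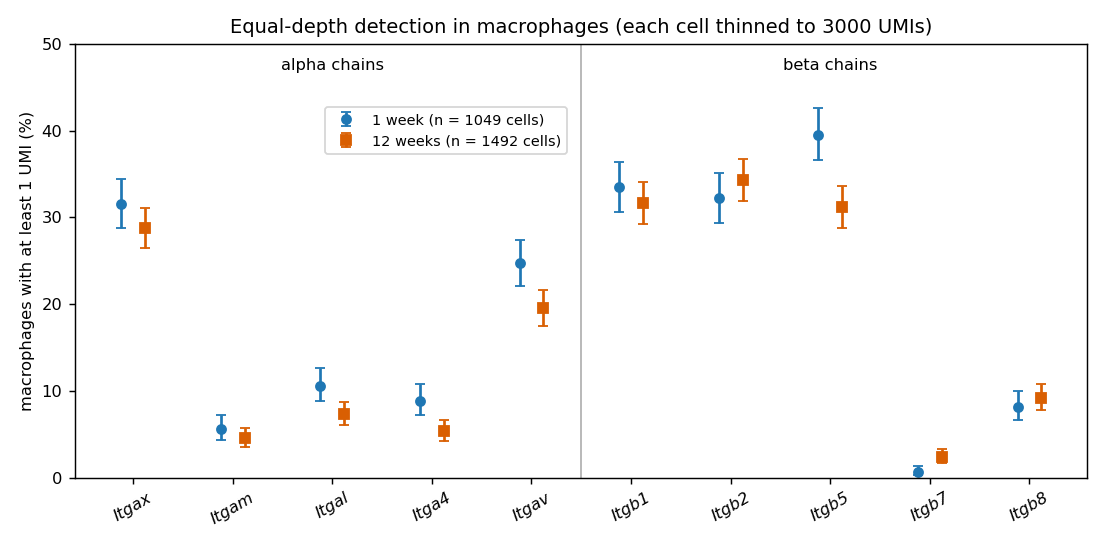
Share of macrophages with at least 1 UMI of each chain (vertical axis, percent) after thinning every cell to 3000 UMIs, in the 1-week library (circles, 1049 cells) and the 12-week library (squares, 1492 cells), with exact 95% binomial intervals. Itgax and Itgav lead the alpha chains, and Itgb1, Itgb2 and Itgb5 lead the beta chains, with the Itgb5 and Itgav shares lower at 12 weeks.

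A single macrophage showed a median of 2 of the 10 chains at 3000 UMIs in both libraries, and at most 7 and 6. No chain was detected in 9.72% of cells at 1 week (interval 8.00% to 11.7%) and 14.5% at 12 weeks (12.7% to 16.4%). At least 1 alpha and 1 beta chain were detected together in 44.0% (41.0% to 47.1%) and 37.3% (34.8% to 39.8%). At this sampling depth a missing chain is a missing count, not a chain shown to be absent.

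Itgav and Itgb8, the 2 chains of the TGF-beta releasing receptor, were found in the same macrophage in 2.67% of cells at 1 week and 2.41% at 12 weeks. At 1 week Itgav was detected in 28 of 86 macrophages with Itgb8, or 32.6% (interval 22.8% to 43.5%), and in 24.0% (21.3% to 26.8%) of those without. At 12 weeks it was detected in 36 of 137 with Itgb8, or 26.3% (19.1% to 34.5%), and in 18.8% (16.8% to 21.0%) of those without. The share was higher beside Itgb8 in both libraries and the intervals overlapped in both. Averaged over all possible thinnings, the shares were 31.7% against 24.1% and 25.9% against 19.7%. The gap also depended on the depth chosen: at 2000 UMIs the shares were 26.7% against 16.5% at 1 week and 20.4% against 13.3% at 12 weeks, and at 5000 UMIs 39.8% against 36.0% and 38.5% against 27.8%, where the 12-week intervals did not overlap. The 1-week gap at 5000 UMIs, 3.83 percentage points, compares with 8.57 at 3000 UMIs. Without thinning the shares were 62.7% against 44.4% and 46.3% against 34.6%, and macrophages with Itgb8 were then also deeper, with median depths of 7994 against 7077 and 7545 against 6734 UMIs.

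The next pairs are given at 3000 UMIs. Itgav was detected in 24.6% of macrophages with Itgb5 and 24.8% of those without at 1 week, and in 19.6% and 19.5% at 12 weeks. Itgav by Itgb1 gave 25.9% against 24.1% and 20.8% against 18.9%. Itgax by Itgb2 gave 31.7% against 31.5% and 29.1% against 28.6%. Itgam was detected in 5.33% of macrophages with Itgb2 and 5.77% without at 1 week, and in 4.10% and 4.80% at 12 weeks. Itgal by Itgb2 gave 11.5% against 10.1% and 7.42% against 7.24%, and Itga4 by Itgb1 gave 8.83% against 8.88% and 4.87% against 5.59%. Intervals overlapped for each of these pairs in both libraries. At 5000 UMIs in the 1-week library, Itgam was detected in 5.23% of macrophages with Itgb2 and 10.2% of those without, a wider gap than that of Itgav by Itgb8 there. Few macrophages carried Itgb7, and Itga4 was detected in 0 of 7 of them against 8.93% of the others at 1 week and in 1 of 36 (2.78%) against 5.43% at 12 weeks, with overlapping intervals. The 2 beta chains Itgb5 and Itgb8, which compete for Itgav, were also compared. Itgb5 was detected in 40.7% of macrophages with Itgb8 and 39.5% of those without at 1 week, and in 35.8% and 30.7% at 12 weeks, with overlapping intervals.

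Over all 45 pairs of the 10 genes, the phi coefficient, a correlation of presence with presence across macrophages of 1 library at 3000 UMIs, ran from -0.0443 to 0.0672 at 1 week and from -0.0472 to 0.0544 at 12 weeks. Itgav with Itgb8 had the highest value of the 25 alpha-beta pairs in both libraries, 0.0545 and 0.0544. The highest value at 1 week was that of 2 alpha chains, Itgal with Itga4, at 0.0672, and the same pair had 0.0246 at 12 weeks. The cells of a library share its preparation and the values are weak, so they are given as a description.

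**Figure D3:**
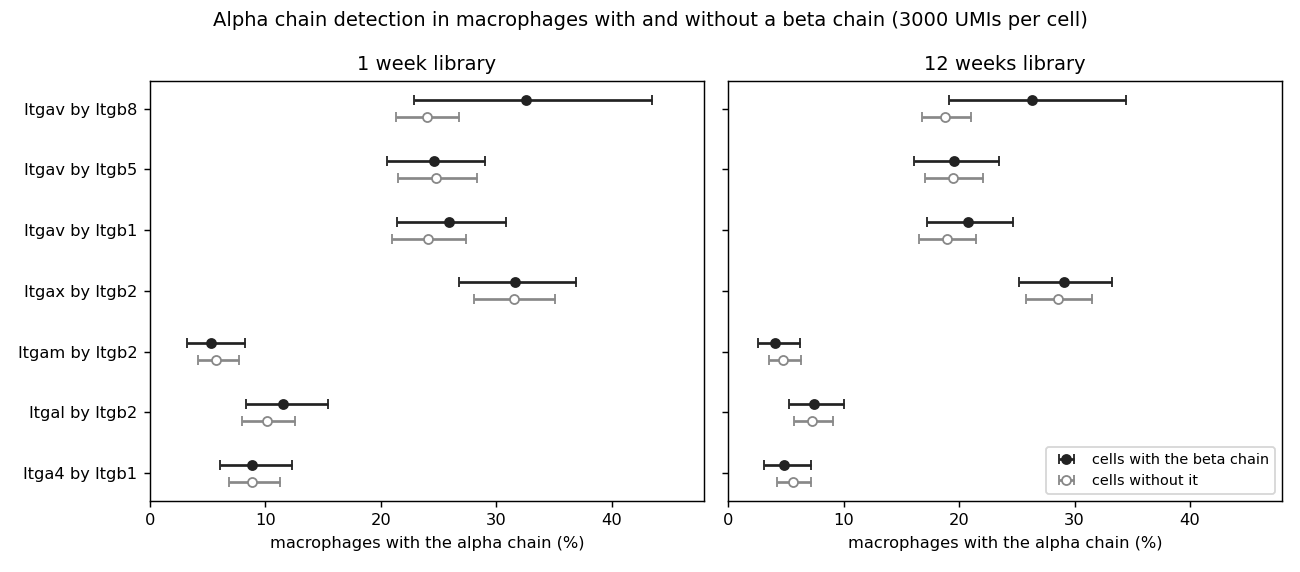
Share of macrophages with an alpha chain (horizontal axis, percent) among cells with the named beta chain (filled points) and without it (open points), each cell thinned to 3000 UMIs, with exact 95% binomial intervals; left, 1-week library, right, 12-week library. Of the 7 pairs drawn, Itgav by Itgb8 shows the widest gap at this depth in both libraries, 32.6% against 24.0% and 26.3% against 18.8%, with overlapping intervals.

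Macrophages were divided into subsets by clustering without any integrin gene, and the subsets are called by their leading genes. Subset 1 (250 cells, led by Ccnb1ip1 and Polr2l) had a median depth of only 3380.5 UMIs and 33 cells at 12 weeks. Subset 2 (549 cells) was led by the chemokine genes Cxcl1 and Cxcl3, subset 3 (206 cells) by the interferon-induced genes Ifit1 and Rsad2, and subset 4 (519 cells) by S100a4, S100a6 and Cxcr4. Subset 5 (779 cells) was led by the heat shock genes Hspa1b and Hspa1a, and subset 6 (429 cells) by the iron exporter gene Slc40a1 and the transcription factor gene Spic. Each subset was compared with the mean of the others by edgeR over 12 profiles, with 9 of the 10 members among 7944 genes tested. Itgb7 did not pass the filter. The subsets were made from the same cells, so these p-values are smaller than for groups known beforehand.

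Itgb8 varied most among subsets. In the heat shock subset it had 7.05 CPM at 1 week and 14.7 CPM at 12 weeks, the lowest value of the 6 subsets in each library. In the Slc40a1 and Spic subset it had 37.5 CPM (interval 23.7 to 56.2) at 1 week and 89.2 CPM (77.5 to 102) at 12 weeks, and in the Cxcl1 subset 44.8 and 61.5 CPM. Itgb8 was lower in the heat shock subset by -1.76 (SE 0.25, edgeR adjusted p = 2.40e-05), a call that held without the library block. It was higher in the Slc40a1 and Spic subset by 1.07 (SE 0.20, edgeR adjusted p = 0.00341) and without the block by 1.20 (edgeR adjusted p = 0.0810), and in the 1-week library alone the difference was 0.62. In the Cxcl1 subset it was higher by 0.86 (SE 0.19, edgeR adjusted p = 0.00637), against 0.83 without the block (edgeR adjusted p = 0.245). With finer clustering (resolution 1) the best match of this subset, with a Jaccard index of 0.408, had a difference of -0.0489, so the direction rests on the clustering used.

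Itgav was higher in the interferon subset, at 170 CPM in the 1-week and 107 CPM in the 12-week library, by 0.73 (SE 0.17, edgeR adjusted p = 0.00785), and without the block by 0.74 (edgeR adjusted p = 0.0458). It was also higher in the Cxcl1 subset, at 125 and 137 CPM, by 0.59 (SE 0.15, edgeR adjusted p = 0.0243), a call lost without the block (0.61, edgeR adjusted p = 0.160) and with DESeq2 (0.63, adjusted p = 0.0611), and it was 1.03 in the 12-week library alone. Within the Cxcl1 subset at 3000 UMIs, Itgav was detected in 16 of 46 macrophages with Itgb8 at 1 week (34.8%) and in 27.5% of those without, and in 9 of 25 (36.0%) against 26.2% at 12 weeks, with overlapping intervals. At 12 weeks it was 35.0% of 20 against 17.3% in the heat shock subset, 26.5% of 49 against 21.8% in the Slc40a1 and Spic subset, and 13.3% of 30 against 15.7% in the S100a4 subset, the one with the other order. The remaining subsets and libraries had too few macrophages with Itgb8 to divide.

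Itga4 was higher in the interferon subset, at 35.2 and 41.0 CPM, by 0.84 (SE 0.25, edgeR adjusted p = 0.0385) and lower in the Slc40a1 and Spic subset, at 19.5 and 11 CPM, by -1.09 (SE 0.29, edgeR adjusted p = 0.0403), with -0.51 in the 1-week library alone. Without the block both calls were lost (edgeR adjusted p = 0.0839 and 0.118). Itgb5 was higher in subset 1, at 300.5 and 189 CPM, by 0.55 (edgeR adjusted p = 0.00858; 0.34 in the 1-week library alone) and in the S100a4 subset, at 242 and 202 CPM, by 0.40 (edgeR adjusted p = 0.0435), and lower in the heat shock subset, at 143 and 107 CPM, by -0.38 (edgeR adjusted p = 0.0337). Itgb2 was lower in subset 1, at 106 and 108 CPM, by -0.53 (edgeR adjusted p = 0.0267). None of these 4 held without the block, where edgeR adjusted p-values ran from 0.0529 for Itgb2 to 0.497 for Itgb5 in the S100a4 subset. The low depth of subset 1 goes with its calls, and its part in them was not tested.

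Together these were 7 higher and 4 lower calls over the 6 contrasts, in which 7.48% of all gene tests were higher and 4.64% lower. The share of all genes called higher was 12.8% in subset 1, 5.31% in the Cxcl1 subset, 7.49% in the interferon subset, 2.73% in the S100a4 subset and 2.39% in the Slc40a1 and Spic subset. The share called lower was 15.6% in subset 1, 6.33% in the heat shock subset and 0.793% in the Slc40a1 and Spic subset. Itgax, Itgam, Itgal and Itgb1 were called in no subset, with edgeR unadjusted p-values under 0.05 for Itgam in subset 1 (0.0271, difference 0.74) and Itgb1 in subset 3 (0.0186, difference 0.33). Itgax ran from 125 to 168 CPM at 1 week and from 110 to 162 CPM at 12 weeks over the 6 subsets.

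**Figure D4:**
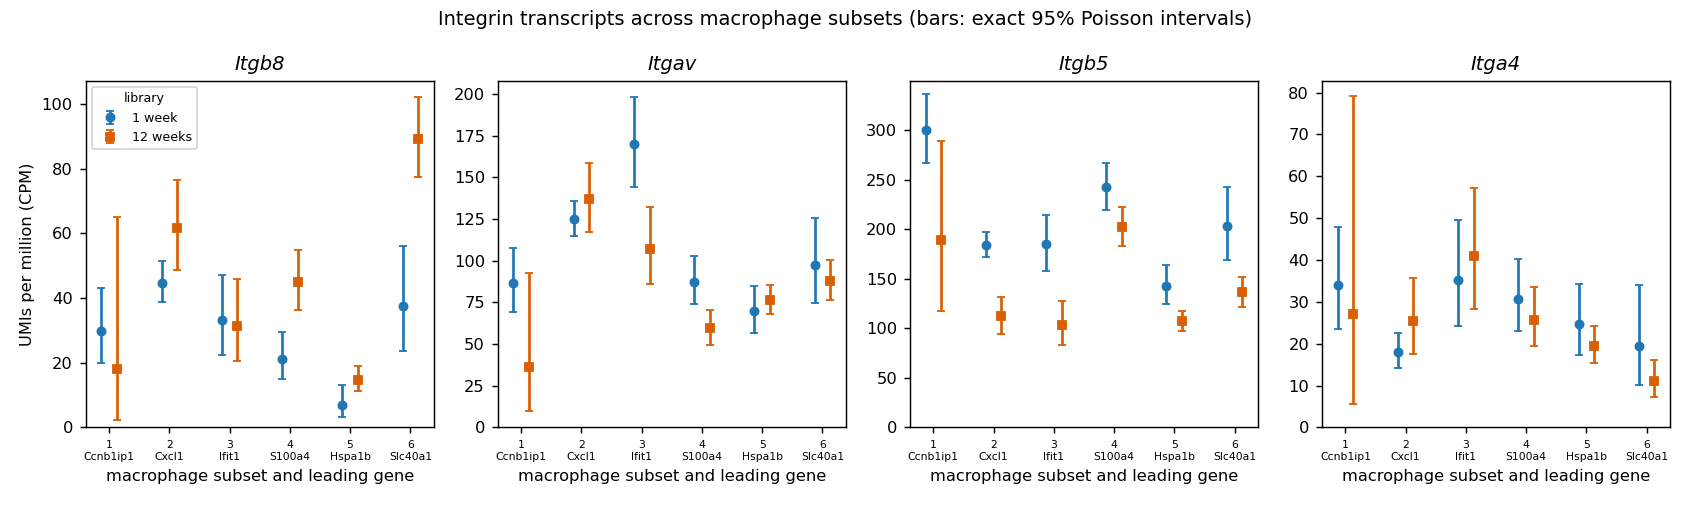
Level of Itgb8, Itgav, Itgb5 and Itga4 (vertical axis, CPM) in the 6 macrophage subsets, each named by number and leading gene, in the 1-week (circles) and 12-week (squares) library, with exact 95% Poisson intervals. Itgb8 is lowest in the Hspa1b subset in both libraries, at 7.05 and 14.7, and highest in the Slc40a1 subset at 12 weeks, at 89.2.

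The genes most like 3 of the members across the 12 subset profiles, by Pearson correlation of log2 CPM after each library was centred and among 4052 genes, were Itm2b (0.957), Rab1b (0.95) and Alg5 (0.934) for Itgax. For Itgav they were Kctd12 (0.922), Dock10 (0.908) and Sms (0.901), and for Itgb8 Fyb (0.875), Rbm6 (0.868) and Gatad1 (0.854). The profiles share libraries and differ in depth, and the highest of many correlations are shown.

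Between the time labels no test was possible, and ratios of the 12-week over the 1-week macrophage level carry counting intervals only. Itgb7 had a ratio of 2.83 (interval 1.78 to 4.65), from 25 and 74 UMIs, and Itgb8 a ratio of 1.41 (1.23 to 1.63). Itgb5 had a ratio of 0.671 (0.627 to 0.717), Itgal 0.711 (0.609 to 0.828), Itgav 0.790 (0.723 to 0.862) and Itgax 0.887 (0.824 to 0.955). The intervals of Itgam, Itga4, Itgb1 and Itgb2 included 1. The 2 chains of the Itgav-Itgb8 receptor thus had ratios on opposite sides of 1.

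Itgb7 was the only member past 1.5-fold higher, where 4.7% of 5891 genes with a mean of at least 10 CPM were that much higher; Itgb7 itself is below that level. No member was past 1.5-fold lower, beside 4.92% of genes, and Itgb5, at 0.671, lay just inside that limit. The median ratio of all these genes was 0.964. Subset makeup moved with the time label: the heat shock subset had 186 and 593 cells, and the Slc40a1 and Spic subset 87 and 342 cells at 1 and 12 weeks. Within the Slc40a1 and Spic subset Itgb8 was 37.5 and 89.2 CPM, within the Cxcl1 subset 44.8 and 61.5 CPM, and within the interferon subset 33.1 and 31.3 CPM. Itgb5 was lower at 12 weeks within each of the 6 subsets.

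**Figure D5:**
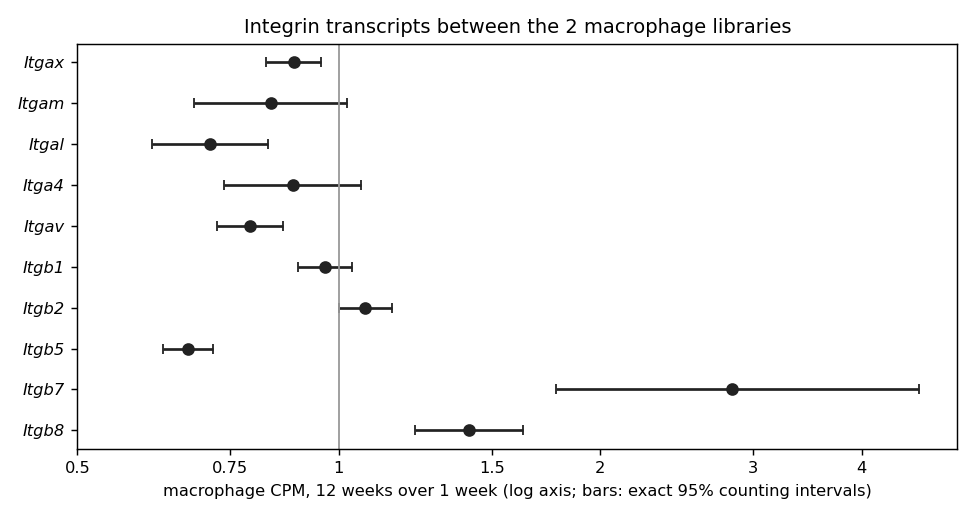
Ratio of the macrophage level at 12 weeks over that at 1 week for each integrin gene (horizontal axis, logarithmic), with exact 95% counting intervals and a line at 1; each label has 1 library. Itgb7 and Itgb8 lie above 1, at 2.83 and 1.41, and Itgb5 lies lowest, at 0.671.

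Of the 16 other integrin chains, 3 reached 10 CPM in macrophages: Itga5, the fibronectin receptor alpha chain, at 94.7 CPM, Itga9 at 60.7 CPM and Itga6, a laminin receptor alpha chain, at 21.9 CPM. Another 11 were under 1 CPM, 2 of them with no UMI. Only Itga5 and Itga9 passed the filter, and both reached its level in macrophages alone, so their order was bound up with passing. Itga5 had 49.97 CPM in dendritic-like, 4.82 CPM in T-like and 3.29 CPM in B-like cells. Itga9 had 1302 UMIs in macrophages and 1 UMI elsewhere, in a dendritic-like cell. Itgae, the CD103 chain of some dendritic and T cells and a partner of Itgb7, had 28.6 CPM in dendritic-like cells, from 12 UMIs, and 0.14 CPM in macrophages.

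Genes that activate integrins or link them to the cytoskeleton were tested for 13 of 25 listed members, and 8 were higher and 2 lower in macrophages than the mean of the other classes. Beside 26.9% and 13.9% of all genes, their median difference was 0.89. Those higher included Fyb, an adaptor of inside-out integrin signalling, by 2.63 (SE 0.29, edgeR adjusted p = 6.15e-07), its partner Skap2 by 1.37 (SE 0.30, edgeR adjusted p = 0.00110) and the focal adhesion adaptor gene Pxn by 1.25 (SE 0.30, edgeR adjusted p = 0.00247). The 2 lower were Skap1, the T cell relative of Skap2, with 1 UMI in macrophages against 27 in T-like cells, and Rasgrp2, an activator of Rap1, by -4.45 (SE 0.65, edgeR adjusted p = 1.5e-05). Both passed the filter through other classes alone, so their order was bound up with passing. Fermt3, among those higher, reached its level in both macrophage profiles and 1 other. Against dendritic-like cells 1 of the 13 was higher (Fyb) and 1 lower (Rasgrp2), beside 12.6% and 8.77% of all genes. Skap2 stood at 143 CPM in both macrophages and dendritic-like cells. Neither Skap2 nor Pxn was called there, at 0.16 and 0.63 (edgeR adjusted p = 0.797 and 0.252).

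Of 15 integrin ligand genes, 2 were tested. Icam1, the ligand of LFA-1, was higher in macrophages than the mean of the other classes by 1.00 (SE 0.26, edgeR adjusted p = 0.00402). Its level was 224 CPM in dendritic-like cells and 150 CPM in macrophages, a difference that was not called. F11r, a junction protein that binds LFA-1, had no UMI in B-like or T-like cells, 49.97 CPM in dendritic-like cells and 90.2 CPM in macrophages, and passed the filter through macrophages alone. Vcam1, the ligand of the Itga4 receptors, had 45.3 CPM in macrophages and 2 UMIs elsewhere. Spp1, which encodes the RGD protein osteopontin, had 44.6 CPM in macrophages and 69.0 CPM in dendritic-like cells. Fn1, fibronectin, had 1.16 CPM in macrophages and 35.7 CPM in dendritic-like cells, and Thbs1, thrombospondin, had 46.4 CPM in macrophages, 43.4 CPM in T-like and 23.8 CPM in dendritic-like cells. F11r was not called against dendritic-like cells either.

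Of 20 genes of latent TGF-beta and its signalling, 11 were tested, 5 were higher in macrophages than the mean of the other classes and none lower, beside 26.9% and 13.9% of all genes. Their median difference was 0.35. Tgfbr1, the type I receptor, was at 326 and 220 CPM in macrophages against 27.2 to 99.2 CPM in the other profiles and was higher by 2.77 (SE 0.27, edgeR adjusted p = 1.09e-07). Skil and Ski, repressors of Smad signalling, were higher by 0.98 (SE 0.23, edgeR adjusted p = 0.00239) and 0.82 (SE 0.27, edgeR adjusted p = 0.0214). Tgif1, a corepressor of the same pathway, was higher by 0.75 (SE 0.24, edgeR adjusted p = 0.0156), and Tgfbr2, the type II receptor, by 0.71 (SE 0.28, edgeR adjusted p = 0.0474). Pooled Tgfbr2 levels were 79.5 CPM in macrophages, 109 CPM in B-like, 86.7 CPM in T-like and 16.7 CPM in dendritic-like cells. Tgfbr2 was called against dendritic-like cells only (2.35, edgeR adjusted p = 0.00107), not against B-like (-0.36) or T-like cells (0.15). Against dendritic-like cells 2 of the 11 genes were called higher, Tgfbr1 and Tgfbr2, beside 12.6% of all genes. Tgfb1 itself, the cargo of latent complexes, stood at 169 CPM in macrophages, 286 CPM in dendritic-like, 231 CPM in T-like and 105 CPM in B-like cells pooled over both libraries. Nrros, which anchors latent TGF-beta on myeloid cells, had 57.5 CPM in macrophages and 105 CPM in dendritic-like cells. Neither Tgfb1 nor Nrros was called against the mean of the other classes (edgeR adjusted p = 0.906 and 0.418).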

How the data were processed

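Single-cell libraries of 2 pools of sorted islet immune cells, prepared with the 10x 3' kit, were used. The deposited values are UMI counts per gene and barcode, made on mm10 with Cell Ranger per the submitters' processing notes (version 3.1.0 per the file headers). The rule that selected cell barcodes was not given in those notes.

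Kept barcodes had 500 or more genes, 1000 or more UMIs and no more than 10% of UMIs from mitochondrial genes. Scrublet (expected rate 0.02, scanpy 1.11.5) called 2 and 8 doublets (0.149% and 0.457%), which were removed. It called so few that mixed droplets stayed in the data. Both libraries were clustered together, leaving out integrin and list genes. The settings were 2000 variable genes chosen across both libraries, 30 components, 15 neighbours, and Leiden resolution 1 for classes and 0.6 for subsets. A cluster took a class name with at least 3 of its markers among its 30 leading genes. These names are rebuilt, not the authors'. The C1q limit of 5 UMIs left out 39 and 32 C1q-rich cells of other named clusters.

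UMI counts were summed per library and class (at least 5 cells) or subset (at least 20 cells in each library) and tested with edgeR 4.0.16 (TMM, filterByExpr, quasi-likelihood, library as a block, Benjamini-Hochberg adjustment over all genes tested, threshold 0.05). The classes gave 8 profiles with 3 residual degrees of freedom, and the subsets 12 with 5. The library served as the block because profiles of 1 library come from the same pooled mice. On simulated counts with 200 genes changed 4-fold, 92% were recovered in the class design over 3158 genes, with 10 false calls, and 79.5% in the subset design over 7944 genes, with 7 false calls. DESeq2 1.42.0 was an alternative. Detection was compared after thinning to 3000 UMIs per cell. Poisson and Clopper-Pearson intervals at 95% cover counting error only, and 0 counts were read with a floor of 3.

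All 10 members are named in each comparison, except that equal-depth shares in the other classes are given only for some cases of Itgax, Itga4, Itgb7 and Itgb8. Of each list, up to 5 called genes of largest change are named, with a few further ligand, chain and TGF-beta genes chosen after their values were seen. The members and lists were chosen with earlier results of these data known. Positions come from GENCODE for GRCm38, the assembly of mm10.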

Additional observations from a re-analysis of the deposited data

Results flagged for a closer look

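Itgal differed from the mean of the other classes by -0.53 at 1 week and by 0.19 at 12 weeks. These log2 values use TMM factors and a prior count of 2. At 12 weeks Itgal had 26.8 CPM in macrophages, against 9.07, 84.6 and 47.6 CPM in B-like, T-like and dendritic-like cells. On the same scale Itgb1 differed from T-like cells by -0.57 at 1 week and by 0.25 at 12 weeks. In CPM, Itgb1 was lower in macrophages in both libraries, at 145 against 463 CPM and 140 against 175 CPM. The direction at 12 weeks thus depends on the scale used. The difference between the libraries was not tested, and the 1-week T-like profile holds 10 cells.

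Integrin transcripts were also counted in clusters outside the 4 classes, above the level that a count of 0 allows. In a cluster of 39 endocrine-like cells, 7 of them with at least 5 C1q UMIs, Itgb1 had 73.1 CPM, Itgav 46.3 CPM, Itgb8 12.2 CPM and Itgb5 7.31 CPM, while Itgax had 1 UMI and Itgam none. In a cluster of 13 endothelial-like cells, 9 of them with at least 5 C1q UMIs, Itgb1 had 482 CPM, Itgb2 94.0 CPM, Itgb5 82.3 CPM, Itgax 70.5 CPM and Itgav 58.8 CPM. The part of macrophage RNA in these levels was not tested.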

How the results depend on the processing

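The class comparison rests on few cells outside the macrophages. With other classes of any C1q, 426 genes were higher and 137 lower against their mean, 2 integrin genes were higher than in B-like cells, 0 were higher than in T-like cells and 1 was lower than in T-like cells. With stricter cell filters 215 genes were lower against the mean, 1 integrin gene was lower than in B-like cells and 2 were higher than in T-like cells. With no filter on low counts 1753 genes were higher and 249 lower against the mean, 1 integrin gene was lower than in T-like cells and 3 were higher than in dendritic-like cells. Without the 1-week T-like profile, a setting chosen after seeing the data, 1 was lower than in T-like cells and 2 were higher than in dendritic-like cells. The difference of Itgb1 from the mean, below 0 as reported, was 0.21 in that setting and was also above 0 with DESeq2 (0.01996), no filter (0.22), any C1q (0.0552), stricter filters (0.0738) and in each library alone (0.0808 to 0.27). Itgal in each library alone ran from -0.53 to 0.19. DESeq2 moved the median of all genes against the mean of the other classes from -0.00361 to 0.105 and called 4 members higher and 2 lower there. Of 322 alternative values of single members in the class contrasts, 277 counted as the same as reported. For values with a test this means the same direction and side of the threshold. Single-library values, which have no test, had to lie within the standard deviation of the 2 single-library values from the reported difference. The cause of these changes was not tested.

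The library block serves as the replicate block. With no replicate block, 1 subset call was higher and 1 lower, in place of 7 and 4, and Itgal lost its call against T-like cells. DESeq2 gave 4 higher subset calls. Clustering at resolution 0.4 gave 2 lower subset calls and at resolution 1 gave 1, where Itgb8 in the best match of the Cxcl1 subset (Jaccard index 0.408) was at -0.0489. Thinning depth sets the shares. At 2000 UMIs Itgav was found in 16.5% and 13.3% of macrophages without Itgb8 at 1 and 12 weeks, and at 5000 UMIs in 36.0% and 27.8%, with 39.8% and 38.5% beside Itgb8. All 40 alternative time ratios stayed within the counting intervals.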

Other observations

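A macrophage subset of 51 cells led by the replication genes Pclaf and Top2a was left out of the test because it held 10 cells at 12 weeks. Its Itgal level was 80.7 CPM (interval 58.4 to 109) in 41 cells at 1 week and 76.7 CPM (36.8 to 141) at 12 weeks, against 37.7 and 26.8 CPM in all macrophages. The subset was also deep, with a median of 13359 UMIs. Its Itgb8 level was 9.39 CPM (3.05 to 21.9) at 1 week, from 5 UMIs, and 69.1 CPM (31.6 to 131) at 12 weeks, from 9 UMIs. These counting intervals did not overlap, but they treat each UMI as independent, and several can come from the same cell. After thinning to equal depth, Itgb8 was detected in 1 of 40 cells at 1 week (2.5%, 0.0633% to 13.2%). At 12 weeks it was detected in 1 of 10 (10%, 0.253% to 44.5%), and the intervals of these shares overlapped. The difference was not tested.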
